A study of Mus musculus with 8 samples.

Results

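Fgf21, Gdf15, Stc1, Stc2, Nupr1, Vldlr and Adm2 are genes that cells of other tissues switch on when the integrated stress response is active. They were chosen by symbol, and all 7 were found among the 55291 genes of the deposited count table. RNA was sequenced from CD8+ T cells that a magnetic isolation kit had enriched from spleens of naïve mice. Of the 8 libraries, 4 are titled ATF4 overexpression and have ATF4 Tg/Tg as their genotype, and 4 are labelled WT. The design text names the 2 kinds of mice E8IcreATF4Tg/Tg and ATF4Tg/Tg, so the mice labelled WT may carry the transgene without the Cre. E8I is an enhancer of the Cd8a locus, which directs Cre to mature CD8+ T cells and not to the other cells of the spleen. No tumor, agent or time course enters this comparison, and the labels give no age, sex or pooling of mice.

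In the integrated stress response, kinases that sense amino acid shortage, unfolded protein, heme shortage or double-stranded RNA phosphorylate eIF2, which lowers general protein synthesis while translation of ATF4 rises. ATF4 pairs with other basic leucine zipper proteins and binds composite sites, through which it induces amino acid transport and synthesis. Some of its outputs leave the cell: FGF21, made mainly by liver, and GDF15, which acts on the hindbrain, are circulating hormones, stanniocalcins are secreted glycoproteins, and ADM2 is a peptide of the calcitonin family. VLDLR is a surface receptor for lipoproteins and reelin. NUPR1 is a small protein of the nucleus that binds chromatin, so it belongs here as a stress output and not as a secreted or surface product.

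The comparison asks which of these outputs are read in RNA of an enriched CD8+ T cell population; which cells made each one was not tested. Nupr1 and Stc2 were plainly higher in ATF4 overexpression, Vldlr and Adm2 appeared at low levels with no count in any WT library, Fgf21 and Gdf15 were at the edge of detection, and Stc1 was almost absent. Atf4 itself had 445, 427, 228 and 212 CPM in ATF4 overexpression (CPM, counts scaled to library size, in replicates 1 to 4), against 285, 308, 165 and 165 CPM in WT. The groups overlapped, and without a block edgeR did not call Atf4 (log2 fold change 0.51 ± 0.31, SE, adjusted p = 0.37). Between libraries of the same number Atf4 was higher in ATF4 overexpression in 4 of 4 pairs, and blocked on that number it was called (0.48, adjusted p = 2.2e-04). It was also called within replicates 1 and 2 alone (0.59, adjusted p = 0.0038) and within replicates 3 and 4 alone (0.41, adjusted p = 0.0046). Replicates 1 and 2 had more Atf4 than replicates 3 and 4 in both groups. The table does not separate transgene from endogenous reads.

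Libraries held 93478686 to 125974143 estimated counts. Of all genes, 16630 passed the filter on low counts (10 counts scaled to the median library, reached by 4 libraries) and were tested with edgeR. Replicates 1 and 2 stood apart from replicates 3 and 4 in both groups, and their columns are named in another style. There were 4 libraries (ATF4 overexpression 1 and 2, WT 1 and 4) with 528 to 752 genes at 2 to 5 counts, against 1248 to 1568 in the others, so a 0 there is weaker evidence of absence. The defining CD8+ T cell gene Cd8a was at 1085 ± 73.8 CPM in ATF4 overexpression and 1395 ± 106 CPM in WT (SD, n = 4 each). Whether each library stands for its own mouse is not stated, so the p-values measure only how far these libraries spread, which may be technical.

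Short stretches of promoter are shown because ATF4 is known to act through composite C/EBP-ATF sites, and 3 of the outputs share their letters. RefSeq start-site windows on GRCm38.p6 (250 bases before to 50 after a start) were found for 6 of the 7 genes. They were searched on both strands for TGATGNAA, whose reverse complement is TTNCATCA. Nupr1 and Fgf21 each had 1 match in their single window, 110 and 139 bases before the start, and Vldlr had 1 match in the second of its 2 windows, 200 bases before that start. The capitals mark the match, and each line reads 5′ to 3′ on the strand of the gene.
Nupr1 (chr7:126625562-126625591, minus strand): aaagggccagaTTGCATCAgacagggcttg
Fgf21 (chr7:45615611-45615640, minus strand): agacccccccaTTGCATCAtccgtccaggc
Vldlr (chr19:27216809-27216838, plus strand): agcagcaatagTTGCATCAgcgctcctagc
All 3 matches were TTGCATCA, and in Nupr1 and Fgf21 the base before it was also the same, giving ATTGCATCA. The Fgf21 stretch lies outside any exon of GENCODE M21, the Nupr1 stretch in the 5′ untranslated part of an exon that begins further upstream, and the Vldlr stretch in the first exon of a retained-intron transcript that begins further upstream. Windows of Stc2, Adm2 and Gdf15 held no match to these letters, which says nothing about binding. Of all 32851 windows 3.97% held TGATGNAA and 0.89% held TGATGCAA or its reverse complement TTGCATCA. Counted by gene, 27 of the 1138 genes called higher that have a window held TGATGCAA on either strand (2.37%), as did 4 of 532 called lower (0.75%) and 48 of 9297 tested and not called (0.52%). For TGATGNAA, the form searched first, the shares were 5.71% of the genes called higher, 3.01% of those called lower and 2.43% of those not called. Over all 27025 genes with a window, tested or not, 4.51% held TGATGNAA and 1.03% held TGATGCAA on either strand. Nupr1 and Vldlr are themselves among the genes called higher. The exact form was picked after the matches were seen, and these shares are descriptions that were not tested.

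Fgf21 and Nupr1 share the match and differed widely in level, as described next. Longer stretches are given for a like contrast, Fgf21 with the match and few reads, and Stc2 without it and with many. The Stc2 stretch ends where the annotated exon begins.
Fgf21 (chr7:45615491-45615740, minus strand): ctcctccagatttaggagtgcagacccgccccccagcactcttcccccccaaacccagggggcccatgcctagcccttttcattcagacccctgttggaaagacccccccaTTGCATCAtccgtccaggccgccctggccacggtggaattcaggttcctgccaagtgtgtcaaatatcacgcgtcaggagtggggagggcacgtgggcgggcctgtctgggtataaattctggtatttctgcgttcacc
Stc2 (chr11:31370075-31370311, minus strand): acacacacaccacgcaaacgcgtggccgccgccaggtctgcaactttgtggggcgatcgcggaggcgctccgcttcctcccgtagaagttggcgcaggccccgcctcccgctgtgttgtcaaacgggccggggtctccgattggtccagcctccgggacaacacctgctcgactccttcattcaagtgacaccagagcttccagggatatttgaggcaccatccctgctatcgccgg

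Nupr1 had the highest level and the largest measured rise. NUPR1 restrains death programmes and binds chromatin under stress. The gene lies on chromosome 7, 126623249 to 126630861, minus strand (GENCODE M21, GRCm38). It was at 40.0, 50.3, 46.6 and 52.3 CPM in ATF4 overexpression (replicates 1 to 4), against 0, 0.268, 0.0584 and 0.461 CPM in WT. Every ATF4 overexpression library was far above every WT library. The WT values rested on 0, 27, 7 and 56 counts and varied widely among themselves. Means were 47.3 ± 5.40 CPM in ATF4 overexpression and 0.197 ± 0.210 CPM in WT (SD, n = 4 each), a log2 fold change of 7.85 ± 0.66 (SE, edgeR, adjusted p = 1.6e-04). Summed over each group there were 22285 counts in ATF4 overexpression and 90 in WT, a ratio of 226 (95% exact binomial interval 183 to 281, counting error only). The size depended on WT replicate 4: without that library it was 8.73 on the log2 scale (adjusted p = 1.9e-04), and limma-voom gave 9.02 (adjusted p = 6.5e-04).

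Stc2 was the only output of the 7 with a clear level in every WT library. STC2 is a secreted glycoprotein that inhibits the protease PAPP-A and so limits release of insulin-like growth factors. The gene lies on chromosome 11, 31357307 to 31370074, minus strand. It was at 13.1, 12.0, 16.2 and 16.6 CPM in ATF4 overexpression, against 2.16, 1.64, 2.63 and 2.44 CPM in WT. The groups did not overlap, and replicates 3 and 4 were higher than replicates 1 and 2 in both groups, the opposite order to Atf4. Means were 14.5 ± 2.27 CPM in ATF4 overexpression and 2.22 ± 0.43 CPM in WT (SD, n = 4 each), a log2 fold change of 2.71 ± 0.20 (SE, edgeR, adjusted p = 2.6e-05). Between libraries of the same number the ratio of ATF4 overexpression to WT was 6.09, 7.32, 6.15 and 6.82. For Atf4 the same ratios were 1.56, 1.39, 1.38 and 1.28. The log2 fold change of Stc2 in replicates 3 and 4 minus that in replicates 1 and 2 was -0.04 ± 0.24 (SE, edgeR interaction, adjusted p = 0.98). For Nupr1 it was -0.74 ± 1.40 (adjusted p = 0.89), so a sizeable difference either way was not detectable. Within replicates 1 and 2 alone the log2 fold change was 2.76 for Stc2 and 8.34 for Nupr1, and within replicates 3 and 4 alone it was 2.69 for Stc2 and 7.57 for Nupr1.

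**Figure D1:**
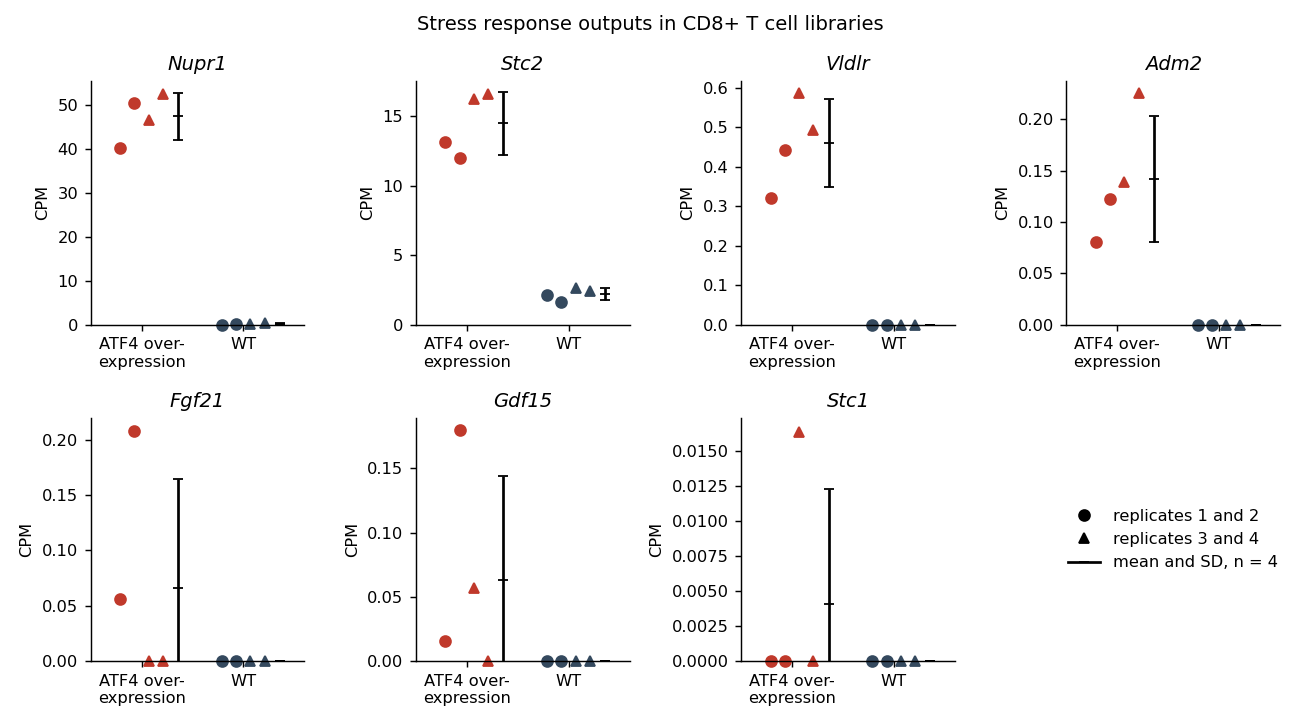
CPM of each gene in each library, 4 per group, with ATF4 overexpression at the left; circles are replicates 1 and 2, triangles replicates 3 and 4, and bars the mean and SD (cut off at 0). Nupr1, Stc2, Vldlr and Adm2 do not overlap between the groups, while Fgf21, Gdf15 and Stc1 have at least 1 ATF4 overexpression library at 0.

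Vldlr and Adm2 were read in all 4 ATF4 overexpression libraries and in no WT library. VLDLR takes up triglyceride-rich lipoproteins and is induced by ATF4 in liver under stress. Its gene (chromosome 19, 27216484 to 27254231, plus strand) had 40, 47, 72 and 59 counts in ATF4 overexpression, against 0 counts in each WT library. That is 0.461 ± 0.111 CPM in ATF4 overexpression (SD, n = 4). With WT set to a floor of 3 counts over the group, the ratio to WT was 66.2. The lower 95% exact binomial limit of the ratio, for counting error only, was 53.4. Leaving out 1 library at a time put the ratio at the floor between 47.5 and 73.4. The edgeR test called Vldlr (adjusted p = 0.0038), and within replicates 1 and 2 alone the call was lost (adjusted p = 0.074). Vldlr passed the low-count filter through its ATF4 overexpression libraries alone, so its call says little beyond the counts themselves.

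Adm2 encodes a peptide of the calcitonin family, also called intermedin, that widens vessels through the receptor CALCRL with a RAMP protein. The gene (chromosome 15, 89322720 to 89324731, plus strand) had 10, 13, 17 and 27 counts in ATF4 overexpression, against 0 counts in each WT library. The level in ATF4 overexpression was 0.142 ± 0.0613 CPM (SD, n = 4). The ratio to WT at the floor of 3 counts over the group was 20.3, and 14.6 to 23.5 with 1 library left out. Its lower 95% exact binomial limit, for counting error only, was 16.1. Adm2 missed the low-count filter because 3 libraries reached the limit of 0.0877 CPM and 4 are needed: ATF4 overexpression 1 stood at 0.0833. Tested without the filter its adjusted p was 0.057 (edgeR), and in the other fits that included it adjusted p ran from 0.048 to 0.098. The exact two-sided permutation test gave p = 0.0286 for Adm2, and the same for Nupr1, Stc2 and Vldlr, the smallest value that 70 assignments of 4 against 4 libraries allow. These assignments ignored the pairing of libraries by replicate number.

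Fgf21 and Gdf15, the circulating hormones of the group, were close to the limit of detection. FGF21 changes fuel use in liver and fat, and GDF15 lowers food intake through GFRAL in the hindbrain. Fgf21 (chromosome 7, 45613886 to 45615490, minus strand) had 7, 22, 0 and 0 counts in ATF4 overexpression, against 0 in each WT library. Gdf15 (chromosome 8, 70629393 to 70632456, minus strand) had 2, 19, 7 and 0 counts in ATF4 overexpression, against 0 in each WT library. Both were highest in ATF4 overexpression 2, where the 95% exact Poisson intervals ran from 13.8 to 33.3 counts for Fgf21 and from 11.4 to 29.7 for Gdf15. Summed over the libraries, 29 counts of Fgf21 and 28 of Gdf15 in ATF4 overexpression were 8.81-fold and 8.50-fold higher than WT at the floor of 3 counts over the group. The lower 95% exact binomial limits of these ratios were 6.72 for Fgf21 and 6.47 for Gdf15. ATF4 overexpression 2 held most of the counts, and without it the ratios at the floor were 2.74 for Fgf21 and 3.52 for Gdf15. Their groups overlapped at 0, and exact two-sided permutation tests gave p = 0.429 for Fgf21 and p = 0.143 for Gdf15. Without the filter edgeR gave adjusted p = 0.23 for Fgf21 and 0.21 for Gdf15. A count of 0 in a library leaves room for up to 3 counts, 0.0240 to 0.0339 CPM by library, so lower levels were not detectable at this depth.

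Stc1, the paralog of Stc2 that acts on calcium and phosphate handling, was at the floor in both groups. The gene (chromosome 14, 69029238 to 69041804, plus strand) had 0, 0, 2 and 0 counts in ATF4 overexpression, against 0 in each WT library. No fold can be given, and the exact permutation test gave p = 1. The stanniocalcins stood far apart: Stc2 had 6879 counts in ATF4 overexpression and 968 in WT, and Stc1 had 2 counts in ATF4 overexpression and 0 in WT. Stc1 is also the only one of the 7 whose exons overlap another annotated gene, sharing 229 bases with the antisense gene Gm41192, which had no count.

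Of the 7 outputs, 3 passed the low-count filter and all 3 were higher in ATF4 overexpression (edgeR, adjusted p below 0.05). Stc2 reached the filter limit in 8 libraries, Nupr1 in 6 and Vldlr in 4, where 4 are needed. Nupr1 and Vldlr thus needed ATF4 overexpression libraries to pass, which favours a higher call for them. Among all 16630 tested genes 1524 were called higher, which is 9.16%, and 813 were called lower, which is 4.89%. A fit blocked on the replicate number called 2279 genes higher and 2237 lower. The groups did not overlap in 4 of the 7 outputs, all higher in ATF4 overexpression, and in 13.3% of all tested genes in that direction, with 8.66% in the other. Adm2, the fourth of these, is not among the tested genes. The outputs were chosen with earlier results of these data in view and as genes that ATF4 induces elsewhere, so these shares describe them and test nothing.

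**Figure D2:**
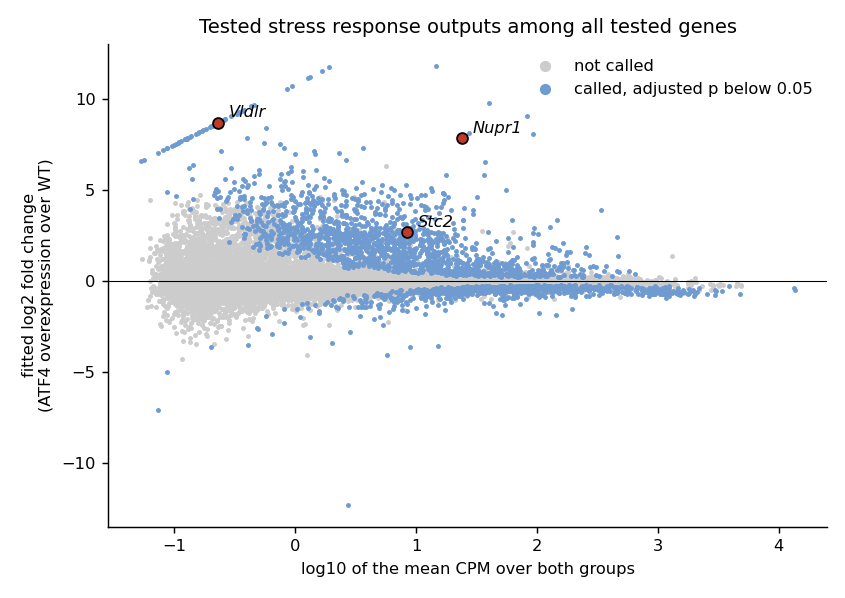
Fitted log2 fold change (ATF4 overexpression over WT) of the 16630 tested genes against the log10 of their mean CPM over both groups; blue points are called at an adjusted p below 0.05 and grey points are not. Nupr1 (7.85) and Stc2 (2.71) are high at moderate levels; Vldlr lies on the line of genes with no WT count, where the fitted value depends on the prior count.

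Read per length, the outputs covered a wide range. CPM was divided by the length of all annotated exons in kb, which ran from 0.951 kb for Fgf21 to 10.068 kb for Vldlr. In ATF4 overexpression Nupr1 stood at 18.8 ± 2.15 CPM per kb, above 83.8% of the tested genes, and Stc2 at 2.80 ± 0.44 CPM per kb, above 45.6%. Adm2 followed at 0.109 ± 0.0472, Fgf21 at 0.0693 ± 0.103, Vldlr at 0.0458 ± 0.0111, Gdf15 at 0.0341 ± 0.0438 and Stc1 at 0.000973 ± 0.00195 CPM per kb (SD, n = 4). Nupr1, Stc2 and Adm2 did not overlap with one another. Adm2 and Vldlr did not overlap either, but the range of Fgf21, from 0 to 0.218, spanned both, and that of Gdf15, from 0 to 0.0968, spanned Vldlr and overlapped the lower part of Adm2. In WT, Stc2 was at 0.428 ± 0.0835 CPM per kb, above 26.5% of tested genes, and Nupr1 at 0.0783 ± 0.0837, above 10.9%, so the order of the pair is turned round between the groups. Salmon's own effective lengths were not used here.

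**Figure D3:**
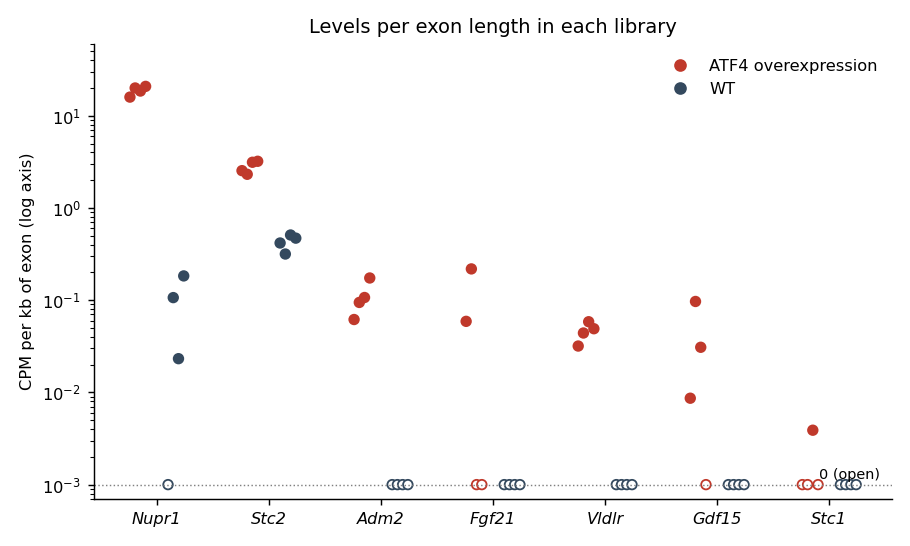
CPM per kb of exon on a log axis for each library, with ATF4 overexpression in red at the left of each pair and WT in dark blue; open symbols on the dotted line are 0. Nupr1 reaches 20.8 and Stc2 3.21 CPM per kb in their highest ATF4 overexpression library, and the highest library of the other 5 genes is at 0.218 CPM per kb.

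The genes whose profiles over the 8 libraries lay nearest to each tested output were named by the mean absolute difference of log2(CPM + 0.5), each profile centred on its own mean. Nearest to Nupr1 were Slc6a9, a glycine transporter (0.156), Chac1, an enzyme that breaks down glutathione (0.287), and Slc1a4, a transporter of alanine and serine (0.320). Nearest to Stc2 were Zeb2, a transcription factor (0.0785), Psat1, an enzyme of serine synthesis (0.1003), and Mthfd2, a mitochondrial folate enzyme (0.127). Slc6a9 was at 54.9 ± 3.04 CPM in ATF4 overexpression and 0.186 ± 0.170 CPM in WT, and Psat1 at 176 ± 26.9 CPM in ATF4 overexpression and 29.2 ± 4.88 CPM in WT (SD, n = 4 each). Nearest to Vldlr were Ptprv (0.0416), Fbxl13 (0.0598) and Anpep (0.0716), where the pseudocount damps the change of a gene as low as Vldlr. These distances rest on 8 libraries in 2 groups and carry no test.

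Of 17 receptors and partners of these outputs 7 had no count in any library. Of the 17, 8 were tested, 2 were higher, none was lower, and the median log2 fold change was 0.25, against -0.02 over all tested genes. Among all tested genes 9.16% were called higher and 4.89% lower. With the replicate block 1 was lower, Mylip (adjusted p = 0.037). The FGF21 co-receptor Klb, the GDF15 receptor Gfral, Fgfr2, Fgfr4, the STC2 targets Pappa and Pappa2, and Dab1, the adaptor of reelin signalling, had 0 counts in all 8 libraries. Ret, the signalling partner of GFRAL, was at 2.18 ± 0.60 CPM in ATF4 overexpression and 0.421 ± 0.148 CPM in WT (log2 fold change 2.36 ± 0.38, adjusted p = 0.0028). Ramp1, a partner of the ADM2 receptor, was at 43.9 ± 5.02 CPM in ATF4 overexpression and 34.4 ± 1.86 CPM in WT (0.35 ± 0.09, adjusted p = 0.031). That call was lost without ATF4 overexpression 3 or 4 or without WT 1, 2 or 4 (adjusted p between 0.032 and 0.085 over the 8 fits without 1 library), within replicates 1 and 2 alone (0.19) and without the 4 libraries with few low counts (0.091). Calcrl, the receptor itself, was at 25.8 ± 8.63 CPM in ATF4 overexpression and 28.05 ± 6.46 CPM in WT (-0.12 ± 0.25, adjusted p = 0.84).

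The other tested receptors and partners did not pass without a block. Fgfr1 was at 2.10 ± 0.37 CPM in ATF4 overexpression and 0.988 ± 0.312 CPM in WT (log2 fold change 1.09, adjusted p = 0.058). Reln, the VLDLR ligand, was at 0.266 ± 0.115 CPM in ATF4 overexpression and 0.0168 ± 0.0194 CPM in WT (3.91, adjusted p = 0.063). With a block for replicates 1 and 2 against 3 and 4 both were called (adjusted p = 0.031 for Fgfr1 and 0.049 for Reln), as they were by DESeq2 and limma-voom, and with the replicate number as block neither was (0.0501 and 0.092). Mylip, a ubiquitin ligase that lowers lipoprotein receptors, had a log2 fold change of -0.19, Lrpap1, a chaperone of such receptors, 0.14, and Ramp3, a partner of CALCRL, -0.22.

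Among 12 close relatives 7 were tested, 3 were higher and none was lower, with a median of 0.73. Lrp1, a large receptor related to VLDLR, was at 8.09 ± 0.53 CPM in ATF4 overexpression and 1.40 ± 0.64 CPM in WT (2.53 ± 0.33, adjusted p = 8.5e-04). Bmp7, of the same ligand superfamily as GDF15, was at 3.13 ± 0.79 CPM in ATF4 overexpression and 0.943 ± 0.380 CPM in WT (1.73 ± 0.39, adjusted p = 0.015). Bmp7 was not called within replicates 1 and 2 alone (adjusted p = 0.065) or without the 4 libraries with few low counts (0.070). Tgfb1 was at 115 ± 4.75 CPM in ATF4 overexpression and 93.8 ± 7.75 CPM in WT (0.29 ± 0.07, adjusted p = 0.027), and this call was lost without ATF4 overexpression 2 or 4 or without WT 1, 3 or 4 (adjusted p between 0.016 and 0.084 over the 8 fits). It was also lost within replicates 1 and 2 alone (0.19) and without the 4 libraries with few low counts (0.22). Lrp8 (0.41), a reelin receptor close to VLDLR, did not pass, nor did Adm (1.11), Inhba (0.73) or Nupr1l (0.38). Fgf15 and Bmp4 had 0 counts in all 8 libraries.

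**Figure D4:**
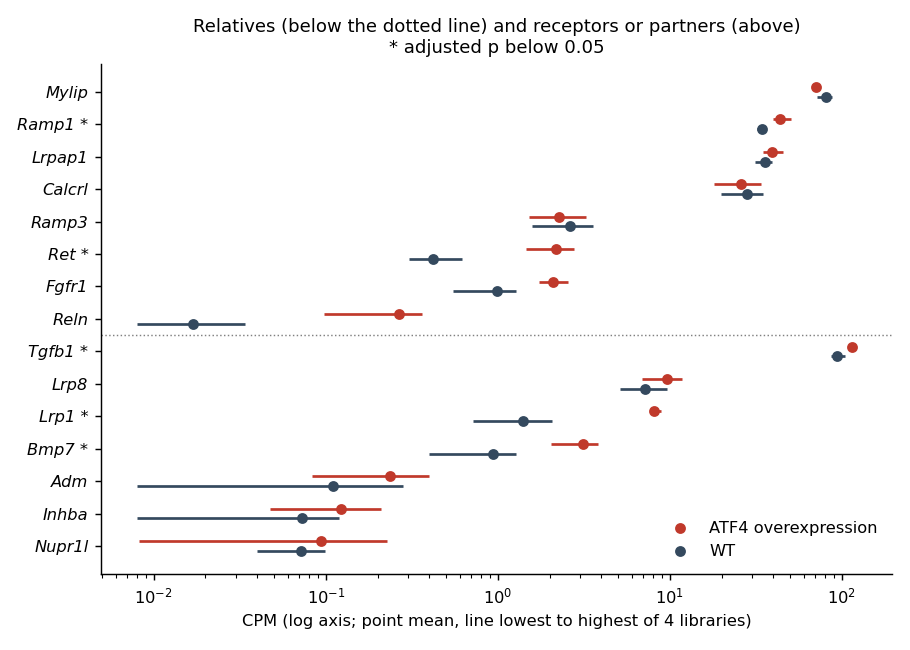
Tested receptors and partners (above the dotted line) and close relatives (below it), with CPM on a log axis; points are means, lines run from the lowest to the highest of 4 libraries, and a lowest value of 0 is drawn at the left end. Ret, Ramp1, Lrp1, Bmp7 and Tgfb1, marked by asterisks, are called higher in ATF4 overexpression.

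The outputs can be set beside the rest of the stress response. Of 18 core genes, all tested, 14 were higher and none was lower, with a median of 3.02. The smallest p-values were those of Asns, asparagine synthetase (9.10 ± 0.21, adjusted p = 1.1e-08), Eif4ebp1, a brake on translation (3.36 ± 0.11, adjusted p = 5.9e-08), and Trib3, a pseudokinase (5.84 ± 0.18, adjusted p = 5.9e-08). Of 14 other secreted or surface genes tied to stress, 9 were tested, 1 was higher and 1 lower, with a median of 0.34. With the replicate block 2 were higher and 1 lower, the second being the chemokine Cxcl10 (1.18, adjusted p = 0.011). Vegfa, the endothelial growth factor, was at 186 ± 28.6 CPM in ATF4 overexpression and 0.704 ± 0.421 CPM in WT (8.07 ± 0.49, adjusted p = 2.6e-05). Tnfrsf10b, a death receptor, was at 6.14 ± 1.31 CPM in ATF4 overexpression and 10.4 ± 2.30 CPM in WT (-0.76 ± 0.21, adjusted p = 0.039), a call kept without ATF4 overexpression 1 or WT 3 and lost without any 1 of the other 6 libraries (adjusted p between 0.022 and 0.11). It was also lost within replicates 1 and 2 alone (0.053) and without the 4 libraries with few low counts (0.106). Creld2 (0.24), Manf (-0.03) and Sdf2l1 (0.37), secreted or luminal proteins of the endoplasmic reticulum stress response, did not pass. They were chosen after their values were seen.

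ATF4 overexpression had higher levels of many markers of other cell types, and their part in the values above was not tested. Fewer cells of a type and less RNA per cell cannot be told apart in bulk RNA. Of 16 myeloid markers 15 were tested and 10 were higher, with a median of 2.47 and a summed level of 291 to 477 CPM in ATF4 overexpression and 117 to 196 CPM in WT. The smallest p-values were those of C1qb (3.06), Vcam1 (3.15) and S100a8 (3.68). Erythroid markers were higher in 9 of 12 tested (median 2.61, sums 165 to 424 CPM in ATF4 overexpression and 87.7 to 122 CPM in WT), led by Car2, Klf1 and Car1. Platelet markers were higher in 6 of 9 tested of 10 (median 2.91, sums 10.98 to 20.1 CPM in ATF4 overexpression and 3.78 to 5.04 CPM in WT), led by Itga2b, Gp5 and Gp9. B cell markers were higher in 7 of 12 (median 2.36, sums 598 to 974 CPM in ATF4 overexpression and 597 to 774 CPM in WT), led by Blk, Ms4a1 and Pax5. NK cell markers were higher in 3 of 10 (median 1.67, sums 523 to 740 CPM in ATF4 overexpression and 411 to 560 CPM in WT), the called ones being Klrk1, Tyrobp and Ncr1, and in none of 10 with the replicate block. Their sums were 740 and 705 CPM in ATF4 overexpression 1 and 2, against 415 and 411 CPM in WT 1 and 2, but 546 and 523 CPM in ATF4 overexpression 3 and 4, against 560 and 542 CPM in WT 3 and 4. Within replicates 1 and 2 alone 7 were higher, and within replicates 3 and 4 alone 1 was lower. Single libraries moved these counts. B cell markers were higher in 4 without ATF4 overexpression 1 or WT 1, in 2 without WT 3 and in 1 without ATF4 overexpression 2 or WT 4. Platelet markers were higher in 3 without ATF4 overexpression 4, and NK cell markers in 1 without ATF4 overexpression 3. With any single library left out Ncr1 was not called, its adjusted p being 0.058 to 0.094. Of 14 stromal and endothelial markers 9 were tested, 5 were higher and 1, Pecam1, was lower (median 2.95, sums 119 to 133 CPM in ATF4 overexpression and 137 to 155 CPM in WT), with Tek, Stab2 and Pecam1 leading and Pdgfra and Lum at 0 in all libraries. Without any 1 ATF4 overexpression library or WT 3, 3 were higher. No other marker of these lists was at 0 in all 8 libraries.

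CD8+ T cell genes were lower in 9 of 16 and higher in none, with a median of -0.28 and sums of 9444 to 10029 CPM in ATF4 overexpression and 11760 to 12174 CPM in WT. With the replicate block 14 were lower. Without ATF4 overexpression 3 or 4, 5 were lower, and without WT 3, 4 were. Within replicates 1 and 2 alone 3 were lower, and without the 4 libraries with few low counts 1 was. Il7r (-0.64), Cd8b1 (-0.39) and Cd3d (-0.53) had the smallest p-values. The ratio of mean CPM, ATF4 overexpression to WT, was 38.6 for Klf1, 32.6 for Car1, 12.9 for S100a8 and 8.36 for C1qb, beside 6.53 for Stc2 and 240 for Nupr1. Ratios of the summed levels were smaller, 2.44 for myeloid, 2.82 for erythroid and 3.50 for platelet markers, and the erythroid sum holds the abundant Tfrc, which was not called (83.6 CPM in ATF4 overexpression and 88.0 CPM in WT). Other sums also hold abundant genes, named here for their level, so the sums say little about the remaining markers. In ATF4 overexpression and WT, Ighm (B cell) was at 582 and 624 CPM and Pecam1 (endothelial) at 115 and 147 CPM. Ctsb (myeloid) was at 137 and 105 CPM, and Nkg7 (NK cell) at 261 and 245 CPM, in the same order. Without the 4 libraries with few low counts (chosen after seeing the data), Stc2 had a log2 fold change of 2.93 (adjusted p = 0.0046). Nupr1 had 8.29 (adjusted p = 0.0017) and Vldlr a fitted value of 8.97 (adjusted p = 0.031). This fit compared ATF4 overexpression 3 and 4 with WT 2 and 3, so group and replicate set were partly mixed. Because Stc2 was higher in replicates 3 and 4 in both groups, its 2.93 may be too large, which was not tested.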

How the data were processed

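Polyadenylated RNA was measured in 8 libraries, grouped and numbered by their titles (4 ATF4 overexpression, 4 WT). The authors deposited a table of genes by libraries that holds Salmon 1.4.0 estimated counts, per the submitters' processing notes, on GRCm38.p6. Salmon splits shared reads by a model. The sources used here do not give annotation release, strand setting or filters. All columns were mapped to a sample by library name, with 0 columns not used.

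Rounded estimated counts were tested with edgeR 4.0.16 (R 4.3.3): TMM scaling, filterByExpr with a minimum count of 10, a quasi-likelihood test, and Benjamini-Hochberg adjustment over all 16630 genes tested at 0.05. CPM uses the TMM library sizes. Single genes were also tested by an exact two-sided permutation test on log2(CPM + 0.5), which did not keep libraries of the same number paired. A group with no count was set to a floor of 3 counts over the group. Intervals and floors cover counting error only. Level per length is CPM divided by the exon length of GENCODE M21. Promoter windows are RefSeq's on GRCm38.p6.

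The outputs and gene lists were chosen with earlier results of these data known. Of these lists, 2 genes are not reported here. Named genes were all tested outputs, receptors and relatives, and up to 3 of each other list, those with the smallest p-values among the called, with exceptions marked in the text. Alternatives were other scalings and filters, DESeq2 1.42.0, limma-voom (limma 3.58.1), a block for the replicate number or for replicates 1 and 2 against 3 and 4, each of these sets alone, and each library left out. Over 8764 genes with at least 10 CPM, deviations from the group means correlated at 0.596, 0.64, 0.666 and 0.636 between libraries of the same number, each above every other pairing, so the numbers pair the samples. On simulated data with 15958 genes tested, the test called 49 of 97 genes at a log2 change of 1, 60 of 95 at 2 and 5 of 15766 unchanged. The simulated libraries were drawn independently, with no pairing by number and no difference between replicate sets, so these rates may not hold for the real libraries.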

Additional observations from a re-analysis of the deposited data

Results flagged for a closer look

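Among the 7 outputs, Stc1 had 1 library apart from its group: ATF4 overexpression 3 stood at 0.0163 CPM and the other 3 libraries of the group at 0, which rests on 2 counts. Eif4ebp1 stood at 40.2 CPM in ATF4 overexpression 1 and at 46.0 to 46.8 CPM in the other 3. Tek stood at 0.0334 CPM in WT 3 and at 0 in the other 3 WT libraries. Chance puts about 1 in 20 groups of 4 normally distributed values past this limit, and 98 groups were checked. That rate does not hold for Stc1 and Tek, because a group with 1 library above 0 and the rest at 0 always lies past it.

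The log2 fold change of 5 marker genes of other cells differed between replicates 3 and 4 and replicates 1 and 2 by the edgeR interaction test. Among all 16630 tested genes, 166 passed that test at an adjusted p below 0.05. In replicates 3 and 4 minus replicates 1 and 2 the difference was 0.90 for Car2 (adjusted p = 0.031), 2.09 for Car1 (adjusted p = 0.039), -2.07 for Klrk1 (adjusted p = 3.6e-05), -2.57 for Tyrobp (adjusted p = 9.6e-04) and -3.71 for Ncr1 (adjusted p = 1.3e-05). Neither Stc2 nor Nupr1 passed that test.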

How the results depend on the processing

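Of 56 log2 fold changes of Stc2, Nupr1 and Vldlr under other settings, 55 kept their direction and their call. Within replicates 1 and 2 alone Vldlr had a fitted value of 8.35 (adjusted p = 0.074) and was not called; the cause was not tested beyond the smaller number of libraries in that fit. Vldlr was not tested under the stricter filter. Without WT replicate 1 Adm2 was also called, making 4 of the 7. Receptors and partners higher numbered 2, and 4 with DESeq2, limma-voom or the set block. Myeloid markers stayed within 1.5 times 10 in every setting run. Erythroid markers higher numbered 3 with limma-voom and 5 within replicates 1 and 2, against 9. B cell markers higher numbered 1 with no low-count filter and 1 without the 4 libraries with few low counts, against 7. Platelet markers higher numbered 2 within replicates 1 and 2, 1 under the stricter filter and 3 without the 4 libraries, against 6. NK cell markers higher numbered 1 with no filter, 5 with DESeq2 and 0 without the 4 libraries, against 3. Stromal and endothelial markers higher numbered 2 under the stricter filter, against 5. With 1 library left out, the log2 fold change ran from 2.59 to 2.80 for Stc2, from 7.49 to 8.73 for Nupr1 and from 8.55 to 8.82 (fitted) for Vldlr. Blocked on the replicate number, Stc2 had 2.72 (adjusted p = 4.0e-06), Nupr1 7.96 (adjusted p = 0.0027) and Vldlr a fitted 8.73 (adjusted p = 0.016), and the block changed no call of these 3. The number of genes higher was 2327 with the set block and 2434 within replicates 3 and 4. The number lower was 2237 with the replicate block, 1927 with the set block, 528 within replicates 1 and 2, 1365 within replicates 3 and 4, 333 without the 4 libraries with few low counts, and 518 to 677 with 1 library left out. Atf4, called with either block and within each set, ran from 0.32 to 0.67 with 1 library left out. Without the 4 libraries with few low counts Atf4 had -0.11 (edgeR, adjusted p = 0.86), and the cause was not tested. That fit leaves no full pairing of the numbers. It set ATF4 overexpression 3 and 4, with Atf4 at 228 and 212 CPM, against WT 2 and 3, with 308 and 165 CPM. Directions also turned for 2 named genes that were not called: Calcrl (0.019 within replicates 3 and 4, 0.39 without the 4 libraries, -0.28 to 0.018 with 1 left out) and Nupr1l (-0.30 by limma-voom, -0.091 with the replicate block, -0.51 to 0.75 with 1 left out), the cause not tested. Depth limits Fgf21, Gdf15 and Stc1, which rest on 29, 28 and 2 counts.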
